A study of Mus musculus with 14 samples.

Results

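The neurotrophins and their receptors were examined in brain hemispheres after an ischemic stroke, as the 6 genes Bdnf, Ntf3, Gdnf, Ntrk2, Ntrk3 and Ngfr out of 46904 genes in the expression table. They were picked by symbol, and each symbol matched 1 row. RNA was sequenced from the contralateral (CL) and the ischemic (MCAO) hemisphere of male mice, 12 weeks old, 48 h after a transient occlusion of the middle cerebral artery that lasted 20 min. Wild-type (Cort+/+) mice gave 3 CL and 3 MCAO libraries, and mice lacking cortistatin (Cort-/-) gave 3 CL and 5 MCAO libraries. The methods describe 3 CL and 5 MCAO replicates as independent and biological, which is more MCAO libraries than Cort+/+ mice have here. Whether a CL and an MCAO library came from the same mouse is not stated. Both genotypes were kept on a C57BL/6J background, the deletion was constitutive, and both hemispheres came from operated animals, so no library stands for an unoperated brain. According to the methods, only replicates that grouped clearly were kept in comparisons where variability was large. Such a choice can narrow the spread within a group. Expression was deposited as RPKM, reads of a gene normalised for its length and for the size of the library. The libraries held 25991115 to 43034552 reads on genes.

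Neurotrophins are secreted proteins that keep neurons alive and shape their synapses. Each mature neurotrophin binds a Trk receptor tyrosine kinase, BDNF preferring TrkB and NT-3 preferring TrkC, while all of them, and above all their uncleaved precursors, also bind the p75 receptor, which can signal death as well as survival. GDNF belongs to another ligand family and signals through GFRα1 and RET. In the adult brain, BDNF is made mostly by neurons, TrkB is found on neurons and, in a truncated form without the kinase, on astrocytes, and p75 is largely restricted to basal forebrain cholinergic neurons.

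In GRCm39, the 6 genes lie on different chromosomes, so none of them neighbours another. Of the ligands, Bdnf (ENSMUSG00000048482) occupies chr2:109505045-109557475 on the plus strand, Ntf3 (ENSMUSG00000049107), which encodes NT-3, chr6:126078375-126143873 on the minus strand, and Gdnf (ENSMUSG00000022144) chr15:7840327-7867060 on the plus strand. Of the receptors, Ntrk2 (ENSMUSG00000055254), which encodes TrkB, occupies chr13:58954176-59281784 on the plus strand, Ntrk3 (ENSMUSG00000059146), which encodes TrkC, chr7:77825707-78387760 on the minus strand, and Ngfr (ENSMUSG00000000120), which encodes p75, chr11:95459638-95478561 on the minus strand. All 6 are annotated as protein coding, with 40 transcripts for Ntrk2, 38 for Ntrk3, 18 for Bdnf, 3 for Ntf3, 2 for Ngfr and 1 for Gdnf. The table holds 1 value per gene, so full-length and truncated forms of TrkB or TrkC were counted together. Long noncoding RNAs on the opposite strand overlap Bdnf (Gm45346, mean 0.155 RPKM) and Ntrk3 (Gm9885, mean 1.38 RPKM). On the same strand, Gm39038 (mean 0.0957 RPKM) and Gm44607 (mean 0.0159 RPKM) overlap Ntrk3, and C630044B11Rik (mean 0.0518 RPKM) overlaps Ntrk2. These overlaps are of whole gene spans. The libraries were made with a stranded kit, but whether the counting used strand is not given in the sources used here. Reads in any exon bases that such a pair shares may therefore not have been told apart.

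Both Trk receptors had a higher RPKM than any of the ligands, and p75 RNA was lower than Bdnf. Mean expression over the 14 libraries was 48.1 RPKM for Ntrk2, 10.2 RPKM for Ntrk3, 3.21 RPKM for Bdnf, 1.68 RPKM for Ngfr, 0.946 RPKM for Ntf3 and 0.238 RPKM for Gdnf. Only 2.84% of all genes had a higher mean than Ntrk2, against 44.3% for Gdnf. Between neighbours in this order, Ntrk2 was 4.73 times Ntrk3, Ntrk3 was 3.17 times Bdnf, Bdnf was 1.92 times Ngfr, Ngfr was 1.77 times Ntf3, and Ntf3 was 3.97 times Gdnf, as ratios of mean RPKM. The order was the same in 14 of 14 libraries for each pair of neighbours, although the ranges over libraries overlapped for Bdnf with Ngfr and for Ngfr with Ntf3. These ratios depend on the gene lengths behind RPKM, recovered as 22013 bases for Ntrk3, 15836 for Ntrk2, 6217 for Bdnf, 3446 for Ngfr and 1714 for Ntf3. A gene read mostly from shorter transcripts than its length is understated.

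The depth behind these values differed as widely. Between 20218 and 33422 reads per library stood behind Ntrk2, 6041 to 9481 behind Ntrk3, 420 to 1083 behind Bdnf, 141 to 363 behind Ngfr, 38 to 93 behind Ntf3 and 14 to 49 behind Gdnf. The spread between libraries of a group, as a coefficient of variation, was 5.13% for Ntrk2 and 7.44% for Ntrk3, against 17.8% for Bdnf, 18.4% for Ntf3, 19.0% for Ngfr and 31.6% for Gdnf. Counting error alone would give 12.9% for Ntf3 and 17.7% for Gdnf, but only 3.7% for Bdnf and 0.602% for Ntrk2. The values of Ntf3 and Gdnf were thus limited by their reads to a larger degree than those of the other genes.

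**Figure D1:**
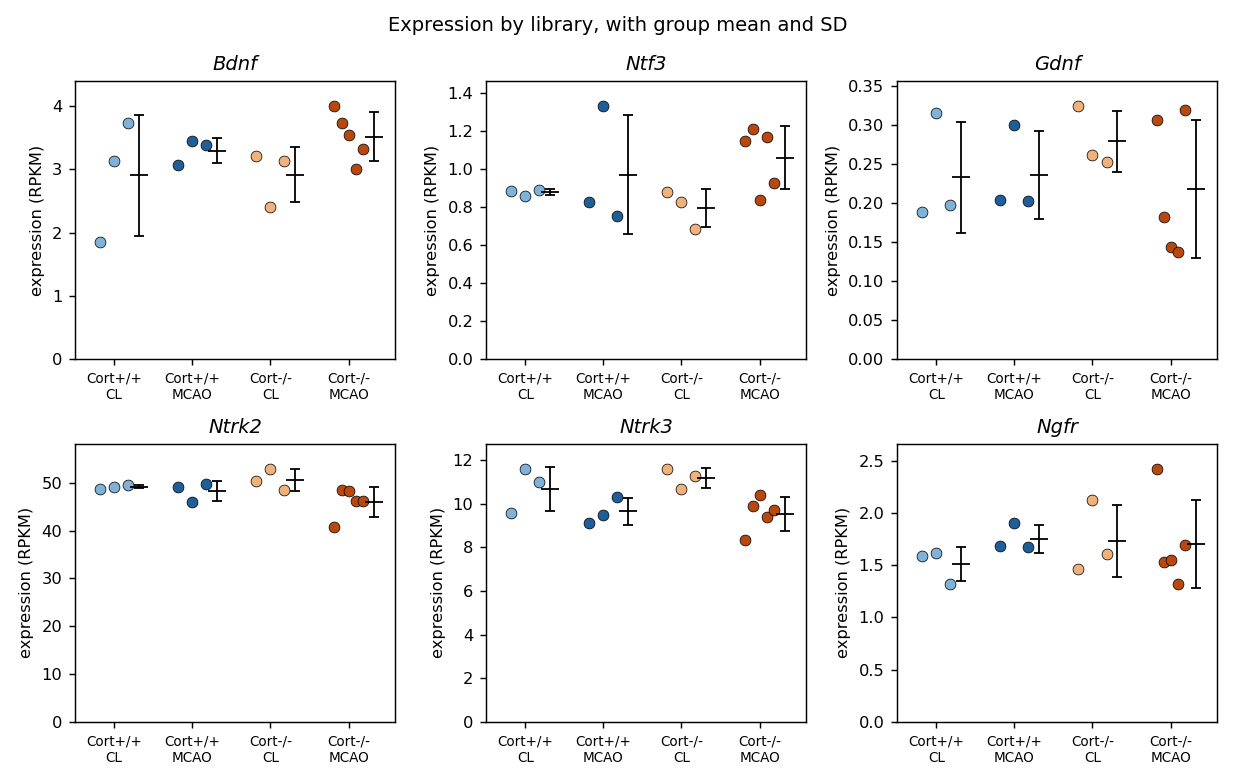
Expression (RPKM, linear axis from 0, 1 panel per gene) in each of the 14 libraries, as points by genotype and hemisphere, with the mean and SD of each group (n = 3, 3, 3 and 5) as a dash with bars. The MCAO points lie below all CL points in the Cort-/- mice for Ntrk3 and above all CL points in the Cort+/+ mice for Ngfr, and the groups overlap in the other comparisons between hemispheres.

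Among the ligands, Bdnf had a higher mean in the MCAO than in the CL hemisphere of both genotypes, but the difference did not exceed the spread between libraries. In Cort+/+ mice, Bdnf was at 1.86, 3.13 and 3.74 RPKM in the CL libraries and at 3.07, 3.45 and 3.39 RPKM in the MCAO libraries. In Cort-/- mice, it was at 3.21, 2.41 and 3.13 RPKM in CL and at 4.0, 3.73, 3.54, 3.0 and 3.33 RPKM in MCAO libraries. The groups overlapped in both genotypes, and the low value of Cort+/+ CL replicate 1 set most of the spread, since the MCAO libraries of these mice lay within the range of their CL libraries. The difference on the scale of log2(RPKM + 0.1) was 0.23 ± 0.20 (SE) in Cort+/+ mice and 0.27 ± 0.18 (SE) in Cort-/- mice (limma adjusted p = 0.887 and 0.608). Without Cort+/+ CL replicate 1 the difference in Cort+/+ mice was -0.05. The mean of both genotypes was 1.19-fold, with a 95% confidence interval from 0.973 to 1.45, so that a change of Bdnf of up to 1.45-fold was within the interval.

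Ntf3, the ligand of TrkC, had its clearest difference in Cort-/- mice. Its values there were 0.880, 0.825 and 0.685 RPKM in CL and 1.15, 1.21, 0.839, 1.17 and 0.928 RPKM in MCAO libraries. All but 1 of the MCAO libraries exceeded every CL library, and MCAO replicate 3, the shallowest library, fell among the CL values. The mean was 1.29-fold that of CL (95% confidence interval 0.995 to 1.67, limma adjusted p = 0.407). In Cort+/+ mice, Ntf3 was at 0.884, 0.860 and 0.891 RPKM in CL and at 0.827, 1.33 and 0.754 RPKM in MCAO libraries. Here 1 library, MCAO replicate 3, stood above the CL libraries and the other 2 below them, giving a difference of 0.09 ± 0.19 (SE) on the log2 scale (adjusted p = 0.965), which was -0.14 without that library.

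Gdnf, a survival factor for dopaminergic and motor neurons, was the lowest of the 6 genes in every group. It was at 0.188, 0.315 and 0.197 RPKM in Cort+/+ CL, and at 0.204, 0.3 and 0.202 RPKM in Cort+/+ MCAO libraries. In Cort-/- mice, the values were 0.324, 0.262 and 0.252 RPKM in CL and 0.306, 0.182, 0.144, 0.137 and 0.319 RPKM in MCAO libraries. The Cort+/+ hemispheres were hardly apart, and the Cort-/- MCAO libraries divided into 2 within the CL range and 3 below it. The differences of 0.02 ± 0.28 and -0.29 ± 0.25 (SE, log2 scale) were not called (limma adjusted p = 1 and 0.698). For Cort-/- mice, the 95% confidence interval ran from 0.563-fold to 1.18-fold, and the spread between libraries was larger than counting error alone would give.

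Of the receptors, Ntrk2 varied least. In Cort+/+ mice it was at 48.8, 49.2 and 49.5 RPKM in CL and at 49.2, 46.0 and 49.7 RPKM in MCAO libraries. In Cort-/- mice it was at 50.4, 52.9 and 48.5 RPKM in CL and at 40.7, 48.6, 48.3, 46.3 and 46.1 RPKM in MCAO libraries. The Cort-/- MCAO libraries lay at or under the low end of CL, with MCAO replicate 1 the lowest of all and MCAO replicate 2 just above the lowest CL library. The ratio of MCAO to CL was 0.982-fold in Cort+/+ mice (95% confidence interval 0.895 to 1.08, limma adjusted p = 0.975) and 0.908-fold in Cort-/- mice (0.836 to 0.987, adjusted p = 0.293). The interval for Cort-/- mice excluded equality before adjustment only (unadjusted p = 0.0272).

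Ntrk3 came nearest to the threshold. In Cort-/- mice, it was at 11.6, 10.7 and 11.3 RPKM in CL and at 8.32, 9.91, 10.4, 9.38 and 9.73 RPKM in MCAO libraries, so that 5 of 5 MCAO libraries were below every CL library, as was the case for 4.27% of all genes tested. In Cort+/+ mice, it was at 9.60, 11.6 and 11.0 RPKM in CL and at 9.14, 9.47 and 10.3 RPKM in MCAO libraries, and the groups overlapped only through CL replicate 1. The difference was -0.23 ± 0.08 in Cort-/- and -0.15 ± 0.09 in Cort+/+ mice (SE, log2 scale, limma adjusted p = 0.174 and 0.772). Over the mean of both genotypes, Ntrk3 was 0.877-fold in the MCAO hemisphere (95% confidence interval 0.804 to 0.956, unadjusted p = 0.00575, adjusted p = 0.102). Single-gene exact two-sided permutation tests gave p = 0.0357 in Cort-/- mice over 56 splits and p = 0.00893 over the 1120 splits within both genotypes (0.193 and 0.161 after adjustment over the 18 tests of the 6 genes). In Cort+/+ mice the exact permutation p was 0.2, where 3 libraries against 3 allow none below 0.1.

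Whether Ntrk3 passed the threshold depended on the setting. The adjusted p of Ntrk3 for the mean of both genotypes passed 0.05 in 3 of 25 alternatives, namely when genes under a mean of 0.5 RPKM were left out (0.0477), with limma voom on whole reads recovered from the table (0.0256), and without Cort+/+ CL replicate 1 (0.0439). In these settings 12.5%, 4.65% and 3.58% of all genes tested passed, beside 3.43% in the model as reported. The adjusted p of Ntrk3 ranged from 0.0256 to 0.266 over all 25, while the difference stayed between -0.25 and -0.16 on the log2 scale.

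**Figure D2:**
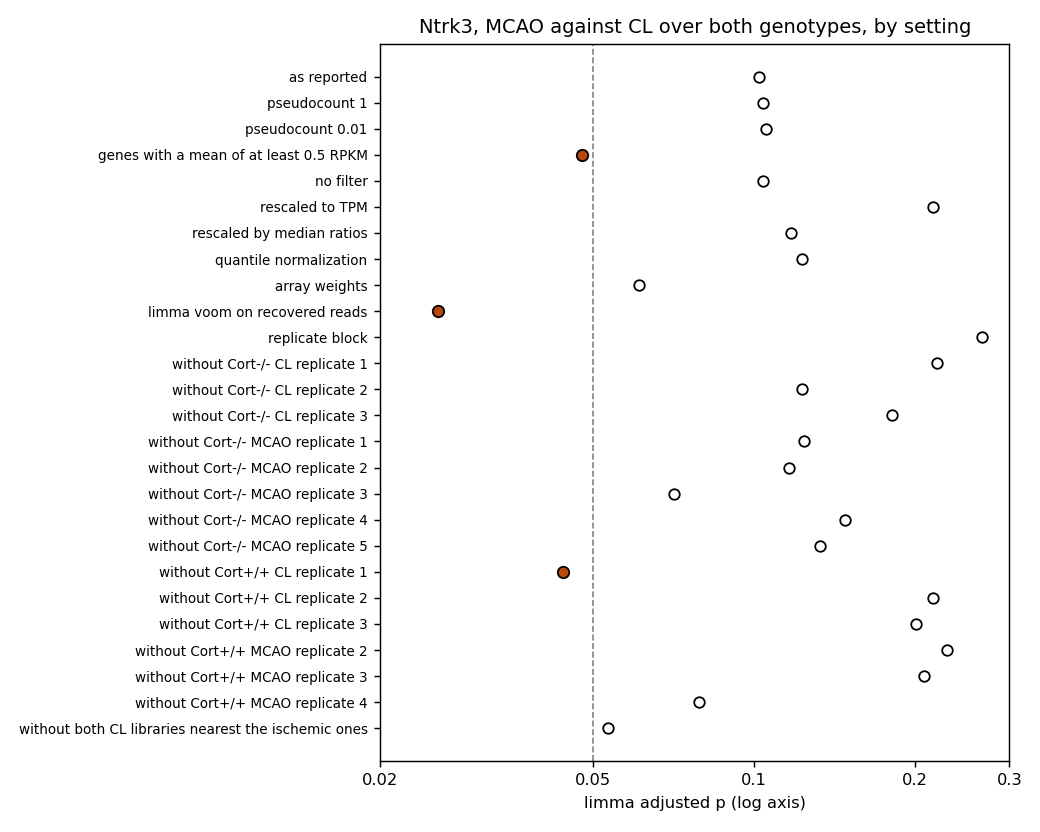
Adjusted p of limma (log axis) for Ntrk3 between MCAO and CL hemispheres over the mean of both genotypes, as reported and under each of 25 alternatives (1 row each); the dashed line is 0.05. Filled points, at 0.0256, 0.0439 and 0.0477, are past it, and open points are not.

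Ngfr did not move one way in both genotypes. In Cort+/+ mice, p75 RNA was at 1.59, 1.62 and 1.32 RPKM in CL and at 1.68, 1.90 and 1.67 RPKM in MCAO libraries, with all MCAO libraries above all CL libraries, as for 5.73% of all genes tested. In Cort-/- mice, it was at 1.46, 2.12 and 1.61 RPKM in CL and at 2.42, 1.53, 1.55, 1.32 and 1.69 RPKM in MCAO libraries, which overlapped widely. The ratio of MCAO to CL was 1.15-fold in Cort+/+ mice (95% confidence interval 0.868 to 1.52) and 0.976-fold in Cort-/- mice (0.759 to 1.26), and neither was called (limma adjusted p = 0.89 and 0.966). The difference between the genotypes in this response was itself not called (interaction -0.24 ± 0.25, SE, log2 scale, adjusted p = 1). The Cort-/- difference became 0.11 without CL replicate 2 and 0.04 without MCAO replicate 4.

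In limma, 0 of the 6 genes passed an adjusted p of 0.05 between hemispheres in Cort+/+ mice, where 0.0108% of the 46102 genes tested did, 0 in Cort-/- mice, where 1.72% did, and 0 over the mean of both genotypes, where 3.43% did. At an unadjusted p under 0.05 the counts were 0, 2 (Ntrk2 and Ntrk3) and 1 (Ntrk3), beside 7.87%, 12.7% and 14.9% of all genes. With limma voom on the recovered reads the counts were 0, 0 and 1, beside 0.124%, 2.81% and 4.65% of all genes. The counts over all genes moved with single libraries. The 5 genes called in Cort+/+ mice became 160 when Cort+/+ MCAO replicate 4 was left out, and the 792 called in Cort-/- mice became 133 when Cort-/- CL replicate 1 was left out. Over both genotypes 1579 were called, and 941 to 1913 with any 1 library left out. In Cort+/+ mice, 1 gene (Ngfr) was higher with no overlap between groups, as were 5.73% of all genes, and in Cort-/- mice 1 gene (Ntrk3) was lower with no overlap, as were 4.27% of all genes. With 6 genes, 1 is the smallest count above 0, and nothing is read from it. The comparisons between hemispheres within a genotype and over both genotypes use the same libraries and are not independent of each other.

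**Figure D3:**
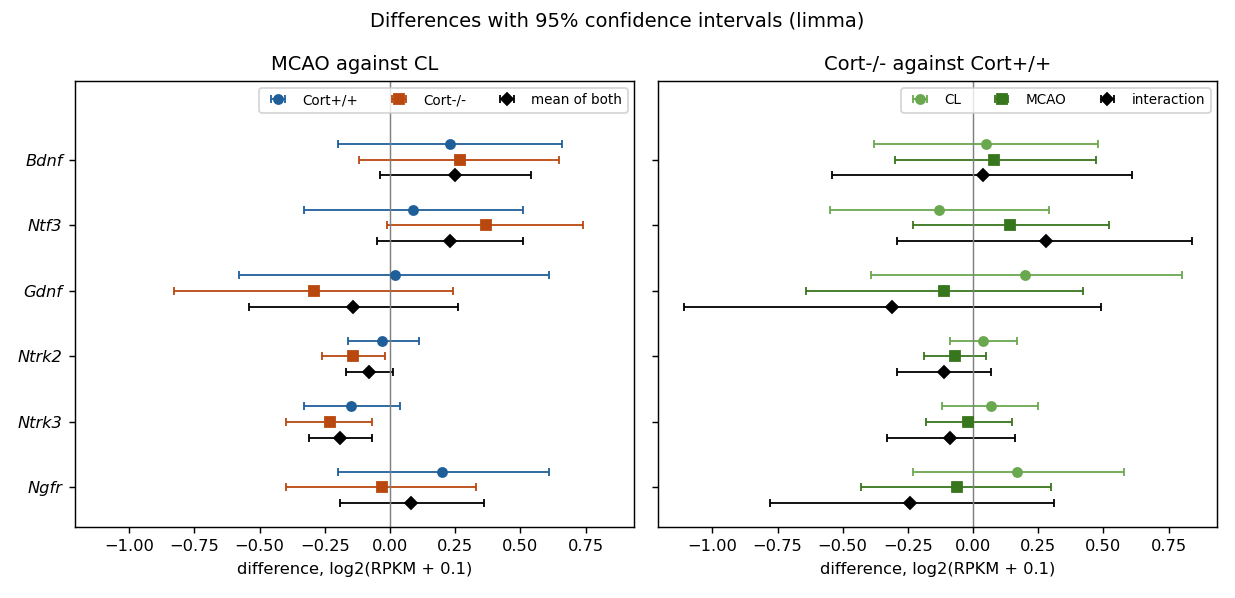
Differences on the scale of log2(RPKM + 0.1), with 95% confidence intervals from limma, for the 6 genes. Left, MCAO minus CL in Cort+/+, in Cort-/- and over the mean of both genotypes; right, Cort-/- minus Cort+/+ in each hemisphere and the interaction. The intervals of Ntrk3 (in Cort-/- and over both genotypes) and Ntrk2 (in Cort-/-) lie below 0 before adjustment, and those of Gdnf are the widest.

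Absence of cortistatin was compared between genotypes in each hemisphere. The label was checked on Cort itself, which held 64 to 139 reads in Cort+/+ CL, 81 to 108 in Cort+/+ MCAO, and 0 to 4 in Cort-/- libraries. In the CL hemisphere, 0 of the 6 genes differed between genotypes by limma, beside 0.0152% of all genes, and in the MCAO hemisphere 0 of 6 beside 0.0174%. At an unadjusted p under 0.05 the counts were 0 and 0, beside 3.91% and 3.82% of all genes, and 0 passed an adjusted p with voom in either. The genotypes overlapped for each of the 6 genes in both hemispheres, while 6.25% and 2.42% of all genes had no overlap. The bounds were narrow for the abundant receptors. Cort-/- was 1.03-fold Cort+/+ for Ntrk2 in the CL hemisphere (95% confidence interval 0.936 to 1.13) and 0.951-fold in the MCAO hemisphere (0.875 to 1.03). For Ntrk3 the ratios were 1.05-fold (0.922 to 1.19) and 0.988-fold (0.881 to 1.11). They were wider for the ligands and p75, with Bdnf at 1.03-fold (0.767 to 1.39) and 1.06-fold (0.812 to 1.38), Ntf3 at 0.912-fold (0.683 to 1.22) and 1.1-fold (0.852 to 1.43), and Ngfr at 1.13-fold (0.851 to 1.49) and 0.957-fold (0.744 to 1.23). Gdnf, at 1.15-fold (0.761 to 1.74) and 0.926-fold (0.64 to 1.34), had the widest bounds.

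The question whether the response to MCAO differed between genotypes was asked with the interaction of the same model. None of the 6 genes passed (0 of 6, with adjusted p = 1 for each, 0 at an unadjusted p under 0.05 and 0 with voom), beside 0.00217% of all genes after and 3.31% before adjustment. The interaction was 0.04 ± 0.27 for Bdnf, 0.28 ± 0.26 for Ntf3, -0.31 ± 0.37 for Gdnf, -0.11 ± 0.08 for Ntrk2 and -0.09 ± 0.11 for Ntrk3 (SE, log2 scale). That Ntrk3 stood apart without overlap only in Cort-/- mice is therefore not shown to be a difference between genotypes.

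The RNA of some cell type markers differed between hemispheres beside these values. Markers of striatal spiny neurons summed to 369 to 415 RPKM in Cort+/+ CL and 208 to 343 RPKM in Cort+/+ MCAO libraries, and to 367 to 389 RPKM in Cort-/- CL and 177 to 269 RPKM in Cort-/- MCAO libraries. Over the mean of both genotypes 7 of 7 of them fell, among them Drd1 (-0.69) and Adora2a (-0.98, log2 scale). Of the general neuron markers, 0 of 7 were called (median -0.10), with sums of 1970 to 2390, 1780 to 2050, 2010 to 2120 and 1780 to 1920 RPKM in the same order of groups. Of the astrocyte markers, Gfap, Aqp4 and Aldh1l1 rose (3 of 7), and 2 of the other 4, Slc1a2 and Slc1a3, had uncalled differences under 0 (-0.17 and -0.09). The astrocyte sums of 484 to 601 and 513 to 578 RPKM in CL and 563 to 742 and 588 to 772 RPKM in MCAO libraries differed through Gfap, since the other 6 markers together averaged 461 and 467 RPKM in CL and 456 and 435 RPKM in MCAO hemispheres of Cort+/+ and Cort-/- mice. Of the microglia markers 4 of 5 rose, from 47.9 to 52.3 RPKM in all CL libraries to 61.2 to 97.7 RPKM in all MCAO libraries. The 3 basal forebrain cholinergic markers summed to 4.58 to 5.18 RPKM in CL and 4.13 to 5.28 RPKM in MCAO libraries with 0 called, and 3 Schwann cell markers, a peripheral source of p75, to at most 0.264 RPKM. Endothelial markers rose in 2 of 4 (Cldn5 and Cdh5) and fibroblast markers in 1 of 4 (Dcn), while 0 were called of the dentate granule neuron, oligodendrocyte, oligodendrocyte precursor, pericyte and smooth muscle, and choroid plexus markers. No gene of these lists was at 0 in every library. The part of these shifts in the values of Ntrk3, Ntrk2 or the ligands was not tested. In bulk RNA, fewer cells of a type and less RNA per cell cannot be told apart.

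Libraries also differed in how far they stood on the way from CL to MCAO. A score set each library between the CL mean (0) and the MCAO mean (1) of the other libraries over 15059 genes, without the 6 described here. Cort-/- MCAO replicate 1 had the highest score, 1.42, and also the lowest Ntrk2 and Ntrk3 and the highest Bdnf and Ngfr of the 14 libraries. The next score, 1.31, was that of Cort-/- MCAO replicate 4, which had the lowest Bdnf (3.0 RPKM) and Ngfr (1.32 RPKM) of the Cort-/- MCAO libraries. The 2 libraries with the highest scores thus lay at opposite ends of the Cort-/- MCAO libraries for Bdnf and Ngfr. Whether any of the 6 genes followed the score over all libraries was not tested. Cort+/+ CL replicate 1, at 0.388, and Cort-/- CL replicate 2, at 0.309, stood nearest to MCAO among the CL libraries, and Cort+/+ MCAO replicate 4, at 0.412, stood nearest to CL. Of the CL libraries of its genotype, the former had the lowest Bdnf and Ntrk3, and the latter the lowest Bdnf and Ntrk3 and the highest Ntrk2 and Ngfr. Without these 2 CL libraries, a choice made after the data were seen, 0 of the 6 genes passed in each comparison. Ntrk3 over both genotypes was then at -0.24 (log2 scale, limma adjusted p = 0.0533), beside -0.19 and 0.102 in the model as reported.

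Around the 6 genes, 71 genes in 7 lists cover the rest of the pathway, and 68 of them were tested. The lists, like the 6 genes, were drawn up with earlier results of these data known. In Cort+/+ mice 0 of 68 passed the test between hemispheres, in Cort-/- mice 1 (1.47%), and over the mean of both genotypes 3 (4.41%), all higher in the MCAO hemisphere, beside 0.0108%, 1.72% and 3.43% of all genes. These shares are near those of all genes. Their median difference over both genotypes was -0.04, beside 0.00 for all genes. No gene of the lists was called between genotypes or in the interaction.

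The other neurotrophins and receptors did not pass the test between hemispheres. Ntf5, the other ligand of TrkB, held 1 to 11 reads per library and its mean difference was -0.09 on the log2 scale (limma adjusted p = 0.897). Sort1, sortilin, the partner of p75 in binding precursors, had a higher RPKM than any of the 6 genes. It was at 81.7 and 84.4 RPKM in CL and 73.9 and 73.2 RPKM in MCAO hemispheres of Cort+/+ and Cort-/- mice. Its mean difference of -0.18 ± 0.05 missed the threshold (adjusted p = 0.0641) but passed it in 4 of 25 alternatives, at 0.0139 with voom, 0.0281 with the filter at 0.5 RPKM, 0.0238 and 0.0432 when replicate 1 or replicate 2 of Cort-/- MCAO was left out. In the list of other neurotrophins and receptors 0 of 7 were called, and all 7 differences over both genotypes were under 0 (median -0.09).

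For GDNF signalling, 0 of 8 tested genes were called. Gfra1, the co-receptor that binds GDNF, was at 11.8 ± 0.801 and 12.2 ± 0.641 RPKM in CL and at 12.6 ± 0.453 and 12.7 ± 0.43 RPKM in MCAO hemispheres of Cort+/+ and Cort-/- mice (SD, n = 3, 3, 3 and 5), so the receptor exceeded its ligand Gdnf by far in each group. Ret, the kinase of the complex, was at 2.61 ± 0.429 and 2.33 ± 0.4 RPKM in CL and 2.63 ± 0.406 and 2.58 ± 0.776 RPKM in MCAO hemispheres. Neither differed over both genotypes by more than its spread (0.08 and 0.06 on the log2 scale, limma adjusted p = 0.382 and 0.918).

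Among the proteases that cleave neurotrophin precursors, 1 of 8 tested rose. Mmp3, stromelysin-1, a matrix metalloproteinase, held 0 reads in 3 of 3 Cort-/- CL libraries and 76, 24, 8, 84 and 49 reads in the Cort-/- MCAO libraries. Set against 3 reads per CL library, the mean of the Cort-/- MCAO libraries was at least 13.1-fold higher. These libraries ran from 0.168 to 1.12 RPKM, and the bound takes in neither their spread nor counting error. The limma test was of another measure, a difference of 2.7 on the scale of log2(RPKM + 0.1) in Cort-/- mice (adjusted p = 0.0408). In Cort+/+ mice Mmp3 held 6, 0 and 0 reads in CL and 9, 76 and 5 reads in MCAO libraries. It passed for the mean of both genotypes (limma adjusted p = 0.019) but not in Cort+/+ mice alone (limma adjusted p = 0.576). The call in Cort-/- mice held in 5 of 14 models with 1 library left out, those without Cort-/- MCAO replicate 2 or 3, Cort+/+ CL replicate 1 or Cort+/+ MCAO replicate 3 or 4, and that of both genotypes in 13 of 14, with adjusted p = 0.0537 without Cort+/+ CL replicate 3. With a pseudocount of 1 neither passed (0.157 and 0.101). Neither passed with the replicate block (0.405 and 0.178), but there 0 of all 46102 genes were called. The other proteases tested (Furin, Pcsk5, Pcsk6, Pcsk7, Plat, Plg and Mmp9) were not called.

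Of the 14 adaptors of Trk signalling, 1 rose and 11 had differences under 0 (median -0.06). Shc1, which links activated receptors to the Ras pathway, was at 3.41 ± 0.35 and 3.6 ± 0.111 RPKM in CL and at 4.19 ± 0.431 and 4.7 ± 0.498 RPKM in MCAO hemispheres of Cort+/+ and Cort-/- mice (SD, n = 3, 3, 3 and 5). It was 1.26-fold over the mean of both genotypes (95% confidence interval 1.13 to 1.4, limma adjusted p = 0.0221). Shc1 lost the call without Cort-/- CL replicate 1 or 3, Cort+/+ CL replicate 3 or Cort+/+ MCAO replicate 3 (adjusted p between 0.0563 and 0.0654). With the replicate block its adjusted p was 0.251, but there 0 of all 46102 genes were called. Shc3, the family member typical of neurons, was not called (-0.01, adjusted p = 0.994). Of 9 co-receptors and adaptors of p75, 0 were called.

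Downstream of TrkB, 0 of 14 genes induced by its signalling or by neuronal activity were called between hemispheres (median -0.02), among them Arc (-0.08, adjusted p = 0.973), Fos (0.27, adjusted p = 0.761) and Vgf (-0.04, adjusted p = 0.938). Of 8 regulators of Bdnf transcription, Nfkb1, a subunit of NF-kappaB, rose, from 4.61 ± 0.38 and 4.61 ± 0.165 RPKM in CL to 5.17 ± 0.373 and 5.57 ± 0.302 RPKM in MCAO hemispheres of Cort+/+ and Cort-/- mice (SD, n = 3, 3, 3 and 5; 1.16-fold over both genotypes, limma adjusted p = 0.0376). This call held in 4 of 14 models with 1 library left out, those without Cort-/- MCAO replicate 3, Cort+/+ CL replicate 1 or 2 or Cort+/+ MCAO replicate 4. It did not hold after rescaling to TPM (adjusted p = 0.0643), nor with the replicate block (0.218), where 0 of all 46102 genes were called. Mmp3, Shc1 and Nfkb1 rose in the hemisphere in which 4 of 5 microglia, 2 of 4 endothelial and 1 of 4 fibroblast markers rose. Of the astrocyte markers 3 of 7 (Gfap, Aqp4 and Aldh1l1) rose there, while Slc1a2 and Slc1a3 had uncalled differences under 0. The part of any of those cells in the rise of Mmp3, Shc1 and Nfkb1 was not tested.

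**Figure D4:**
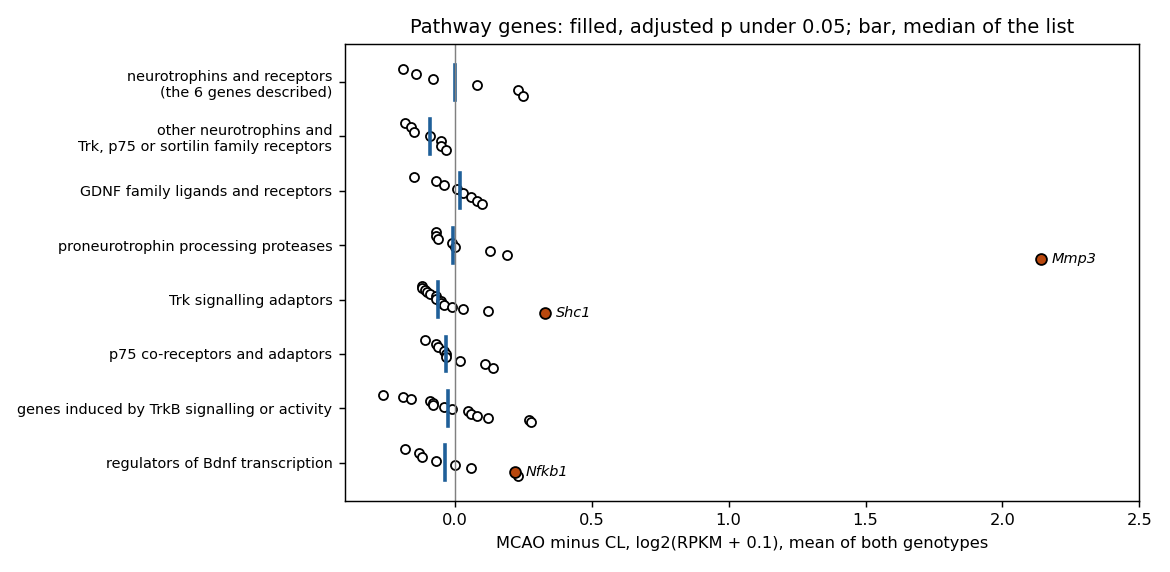
Differences between MCAO and CL hemispheres (log2(RPKM + 0.1), mean of both genotypes) for the 6 genes and for the 68 tested genes of the 7 pathway lists, with 1 point per gene and a bar at the median of each list. Filled points (Mmp3, Shc1, Nfkb1) have an adjusted p under 0.05 in limma; the position of Mmp3 depends on the pseudocount, since most CL libraries held 0 reads.

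The genes whose expression followed each of the 6 most closely over the 14 libraries were sought among genes averaging 1 RPKM or more, as Pearson correlations of log2(RPKM + 0.1). These values are descriptions, picked as the highest of many, over libraries that share the groups of the study. Ntrk3 was followed by Gcc2, Plcb1 and Gsk3b (r = 0.951, 0.95 and 0.946, and 0.913, 0.905 and 0.9 after group means were taken off). Plcb1, a phospholipase C, was at 35.4 ± 2.51 and 36.5 ± 2.98 RPKM in CL and at 30.7 ± 1.23 and 31.1 ± 3.16 RPKM in MCAO hemispheres of Cort+/+ and Cort-/- mice (SD, n = 3, 3, 3 and 5), and Gsk3b, a kinase, at 28.2 ± 1.8 and 28.7 ± 1.56 RPKM in CL and 24.9 ± 1.61 and 25 ± 1.86 RPKM in MCAO hemispheres. Ntrk2 was followed by Ddx17, Uggt2 and Atp2b3 (r = 0.901, 0.883 and 0.868). Among the ligands, Bdnf was followed by Cxxc5, Maf and Cap1 (r = 0.913, 0.895 and 0.894), Ntf3 by Serinc3, Ddx54 and Ptgs2 (r = 0.905, 0.875 and 0.865), and Gdnf by Gm14325, Zfp975 and Mgat4a (r = 0.901, 0.855 and 0.83). Ngfr was followed by Cdhr4, Cfap144 and Mindy4 (r = 0.927, 0.882 and 0.851). For Cdhr4 the correlation was 0.976 after group means were taken off.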

How the data were processed

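The authors processed reads of 14 brain hemispheres with reanalyzerGSE v3.0.0 on GRCm39 and GENCODE M28 and deposited RPKM values per gene and library. The aligner, counter, gene lengths and library scaling are not given in the sources used here. Lengths and library sizes that turn RPKM into whole reads were searched for, and 100% of 495656 values above 0 came out whole within 0.01 read, with library sizes 0.954 to 1.041 times the recovered reads.

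Genes above 0 in at least 2 libraries (46102 of 46904) were fitted on log2(RPKM + 0.1) with limma 3.58.1 in R 4.3.3 (4 groups, moderated variances with trend, Benjamini-Hochberg adjustment over all genes tested, threshold 0.05), after tests on simulated data. Folds are back-transformed and understate changes of low genes. Exact permutation tests went through all splits, and their p-values were adjusted with scipy 1.17.1. Positions came from GENCODE M39, which matched 99.76% of genes. The limma p-values set differences of group means against the spread between these libraries, and the exact p-values against relabelled libraries.

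The 6 genes and all lists were chosen with earlier results of these data known. Named were these genes, list genes past the threshold, Ntf5, Sort1, Gfra1, Ret, Cort and the 3 most correlated genes per member. Some genes of this rule are not reported here. Any other gene was picked after its values were seen. Alternatives varied pseudocount, filter, scaling, weights, blocks and libraries.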

Additional observations from a re-analysis of the deposited data

How the results depend on the processing

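Each member's difference was recomputed under up to 26 alternatives, 918 in all. Direction and side of the threshold were kept in 881, 34 turned direction, and 3 (Ntrk3 over both genotypes) passed the threshold. The number of members called became 1 (from 0) over both genotypes with the filter at 0.5 RPKM, with voom, and without Cort+/+ CL replicate 1 (range 0 to 1 with 1 library left out), and stayed at 0 in the other 151 recounts. The cause was not tested. For Gdnf, the filter at 0.5 RPKM gave no value. Differences that turned were uncalled in both settings. After turning they reached as far as -0.24, for Bdnf between genotypes in CL hemispheres with 1 library left out. In Cort+/+ mice, MCAO against CL became -0.07 for Bdnf and -0.01 for Gdnf with the replicate block, -0.05 and -0.08 without both CL libraries nearest to MCAO, -0.04 for Gdnf after quantile normalization and 0.00 for Ntrk2 after rescaling to TPM. In Cort-/- mice, Ngfr became 0.01 with library weights, 0.06 with the replicate block and 0.11 without both CL libraries. Between genotypes, Bdnf became -0.11 in CL hemispheres without both CL libraries, and Ntrk3 became 0.04 in MCAO hemispheres after rescaling to TPM; its interaction became 0.04 with the replicate block.

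With 1 library left out, differences between hemispheres ranged in Cort+/+ mice from -0.05 to 0.43 for Bdnf, -0.14 to 0.23 for Ntf3, -0.11 to 0.19 for Gdnf and -0.05 to 0.01 for Ntrk2, and in Cort-/- mice from -0.16 to 0.11 for Ngfr. Between genotypes they ranged in CL hemispheres from -0.24 to 0.25 for Bdnf and -0.01 to 0.12 for Ntrk3, in MCAO hemispheres from 0.00 to 0.37 for Ntf3, -0.22 to 0.02 for Gdnf, -0.06 to 0.03 for Ntrk3 and -0.19 to 0.02 for Ngfr, and the interaction of Bdnf from -0.17 to 0.32. Where an arm is left with few libraries, limma shares the spread of the other groups.

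Libraries of 1 genotype share replicate numbers across hemispheres, but deviations of same-numbered libraries correlated at -0.239 to 0.316 over 5 pairs, so the numbers were not taken as pairs. With the replicate block 0 of all 46102 genes were called between hemispheres or in the interaction, so the count of 0 members there says nothing about stability. Of the pathway genes, Mmp3, Shc1 and Nfkb1 kept their calls over both genotypes in 21 of 24, 19 of 25 and 12 of 25 alternatives, and each lost it with the replicate block. Depth adds to the spread of Gdnf and Ntf3, with at most 49 and 93 reads per library.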
